A study of Mus musculus with 4 samples.

Results

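Collagen genes were examined for open chromatin in mouse colonic organoids. The members were all protein-coding genes of the mm10 mouse assembly whose symbol has the form Col, a number, a and a number, and 44 of 21631 protein-coding genes met this rule. Bulk ATAC-seq, which marks open DNA by the adapters that the enzyme Tn5 places there, had been performed on nuclei of organoids that were frozen alive after treatment and later thawed. All 4 libraries came from WT mice, carried the cell type label colonic epithelium and shared the batch label DSS33. The 4 groups held 1 library each: organoids from mice with chronic colitis and organoids from healthy control mice, each given 0.1% DMSO or 10 µM T-5224, an inhibitor of the transcription factor AP-1, for 24 h. The labels do not say how many mice each culture came from.

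All values came from 1 deposited peak list covering the series, with no value for any library, so colitis could not be compared with control, nor T-5224 with DMSO, and no replicate error or test is given for any value below. The sources used here do not give the libraries from which peaks were called. The list held 157922 summits, the points of highest signal, in 113404 regions. The authors' fold at a summit is its signal over a background that was the same everywhere, and the lowest deposited fold was 2.09. The 95% intervals given with some folds are exact Poisson intervals from the recovered pileup and cover counting error alone. A fold of 0 in a median stands for a gene with no summit. Open chromatin is not a measure of transcript level.

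Collagens are secreted or membrane-bound proteins whose alpha chains wind around each other in a helix. Fibrillar collagens form the tensile fibers of connective tissue and are made mainly by fibroblasts and related stromal cells. Basement membrane collagens form and anchor the sheet on which epithelia rest, and can be made by the epithelium itself and by the cells beneath it. Transmembrane collagens stay in the plasma membrane, and type XVII is a component of the hemidesmosome, which fixes an epithelial cell to its basement membrane.

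Most collagen genes held open chromatin, but little of it at their ends. A summit lay in or within 1 kb of the gene in 38 of 44 members (86.4%), against 74.5% of all protein-coding genes. Within 1 kb of an outer end of the gene the count was 18 of 44 (40.9%), against 64.3%. Among genes of 100 kb or more, where long bodies give more room for summits, 24 of 26 members (92.3%) and 92.4% of all genes had one in or near the gene, while 38.5% of members and 68.2% of all genes had one at an end. At a RefSeq start site, which 35 members have in the table used, 14 (40.0%) had a summit within 1 kb, against 64.5% of the 17274 genes with such a site.

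The strongest summit of a collagen gene was rarely at its start. For 31 members with a start site and any summit, the strongest lay over 10 kb from every start in 25 (80.6%), against 16.0% of all genes and 46.0% of genes of 100 kb or more. It lay within 1 kb of a start in 3 members, Col27a1, Col11a2 and Col6a2. The median distance was 36.8 kb for members and 0.140 kb for all genes.

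Signal was also lower in height. A summit of 10-fold or more was found in or within 1 kb of 12 members (27.3%), against 58.7% of all genes. At an outer end it was found in 2 members (4.55%), Col1a1 and Col23a1, against 49.5%. The median of the strongest fold in or near the gene was 5.62 over the 44 members and 17.4 over all genes. At the ends these medians were 0 and 9.62. Members carried 3.49 summits per 100 kb of gene body and all genes 9.25, and among genes of 100 kb or more these densities were 2.91 and 5.51. No summit was listed in or near Col1a2, Col11a1, Col12a1, Col9a3, Col6a1 and Col10a1.

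**Figure D1:**
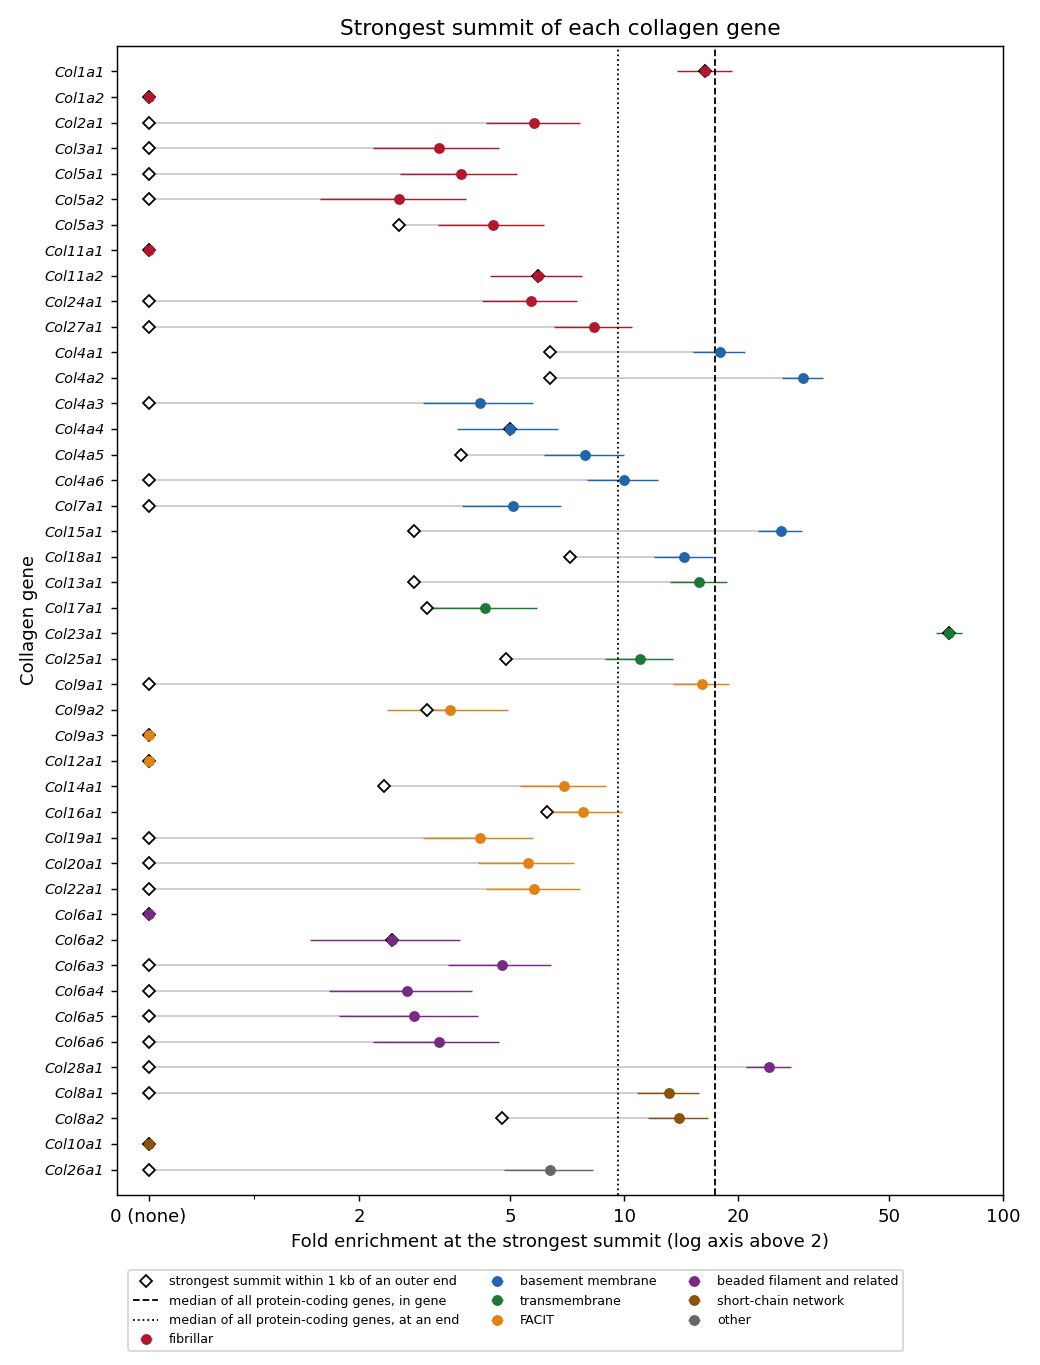
Strongest summit of each of the 44 collagen genes, with fold enrichment on a log axis above 2 and genes in rows colored by class. Filled points with 95% Poisson intervals are the strongest summit in or within 1 kb of the gene, open diamonds the strongest within 1 kb of an outer end, and 20 genes have a filled point above 0 but a diamond at 0.

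The promoters of 6 members are shown because they span the range found at start sites, from a summit of 10.6-fold at Col23a1 to no summit at Col1a2 and Col3a1. Each runs from 250 bases before to 50 after the RefSeq start on GRCm38.p6, the assembly behind mm10, 5′ to 3′ along the gene. Capitals mark every match, on either strand, to GGGCGG (the GC box), CCAAT (the box of that name), TATAAA (the TATA box), GGAATG (the TEAD motif), TGACTCA or its reverse complement TGAGTCA (the AP-1 motif). No matches overlapped each other in these 6 windows.
Col4a2: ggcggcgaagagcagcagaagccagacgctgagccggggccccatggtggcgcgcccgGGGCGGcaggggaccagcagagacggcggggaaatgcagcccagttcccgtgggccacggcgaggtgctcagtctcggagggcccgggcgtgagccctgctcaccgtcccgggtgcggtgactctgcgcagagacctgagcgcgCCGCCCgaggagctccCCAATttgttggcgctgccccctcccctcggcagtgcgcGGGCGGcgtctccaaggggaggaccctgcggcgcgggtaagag
Col18a1: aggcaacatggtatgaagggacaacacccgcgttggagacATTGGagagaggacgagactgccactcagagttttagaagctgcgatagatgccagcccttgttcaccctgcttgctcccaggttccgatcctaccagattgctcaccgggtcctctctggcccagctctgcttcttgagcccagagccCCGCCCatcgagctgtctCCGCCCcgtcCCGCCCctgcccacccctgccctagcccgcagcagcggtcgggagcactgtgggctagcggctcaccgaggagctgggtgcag
Col23a1: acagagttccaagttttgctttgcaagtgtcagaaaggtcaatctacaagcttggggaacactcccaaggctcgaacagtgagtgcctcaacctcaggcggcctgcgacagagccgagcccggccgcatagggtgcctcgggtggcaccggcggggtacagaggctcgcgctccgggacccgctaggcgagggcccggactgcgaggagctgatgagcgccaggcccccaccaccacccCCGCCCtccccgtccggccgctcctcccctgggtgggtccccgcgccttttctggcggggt
Col17a1: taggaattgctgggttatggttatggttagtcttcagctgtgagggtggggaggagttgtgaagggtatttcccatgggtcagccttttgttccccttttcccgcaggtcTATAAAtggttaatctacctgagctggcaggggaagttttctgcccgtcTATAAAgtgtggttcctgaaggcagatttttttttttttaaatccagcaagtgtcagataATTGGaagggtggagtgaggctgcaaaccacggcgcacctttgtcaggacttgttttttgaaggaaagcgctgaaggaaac
Col1a2: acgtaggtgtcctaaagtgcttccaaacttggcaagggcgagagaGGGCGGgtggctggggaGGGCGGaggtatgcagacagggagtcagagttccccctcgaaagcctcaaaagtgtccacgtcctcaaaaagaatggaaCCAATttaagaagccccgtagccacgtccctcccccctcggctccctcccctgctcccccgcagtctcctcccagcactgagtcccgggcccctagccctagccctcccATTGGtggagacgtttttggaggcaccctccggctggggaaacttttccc
Col3a1: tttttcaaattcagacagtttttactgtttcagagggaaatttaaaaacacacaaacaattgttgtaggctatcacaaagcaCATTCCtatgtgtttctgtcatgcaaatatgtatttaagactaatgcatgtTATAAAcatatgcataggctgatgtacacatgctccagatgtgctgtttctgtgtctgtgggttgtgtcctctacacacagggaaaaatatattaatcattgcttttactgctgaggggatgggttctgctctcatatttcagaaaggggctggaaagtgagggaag

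These windows lie at chr8:11312555-11312854 on the plus strand for Col4a2, chr10:77166481-77166780 on the minus strand for Col18a1, chr11:51289670-51289969 on the plus strand for Col23a1, chr19:47691993-47692292 on the minus strand for Col17a1, chr6:4505368-4505667 on the plus strand for Col1a2 and chr1:45311288-45311587 on the plus strand for Col3a1. A GC box is in the windows of Col4a2, Col18a1 and Col23a1, which had a summit over 6-fold at the start. Col17a1, with a summit of 3.01-fold inside the start, has no GC box but a pair of TATA boxes, the nearer beginning 91 bases upstream. Col1a2 has GC and CCAAT boxes, as Col4a2 and Col18a1 do, but no summit. Col3a1 has a TATA box and no GC box or summit.

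Over all collagen promoters in the table (38 promoters of 35 genes), a GC box was found in 60.5%, against 46.7% of the 21045 promoters of all coding genes. It was in 14 of the 15 collagen promoters with a summit within 1 kb and in 9 of the 23 without. Over all genes these shares were 64.6% with and 15.2% without a summit. The 15 collagen promoters are not all separate places. Col4a1 and Col4a2 share the summits at their starts, and Col6a2 enters with 2 starts near the same summit. The median ratio of observed to expected CpG was 0.614 in collagen promoters with a summit and 0.332 in those without, and 0.756 and 0.203 over all genes. The AP-1 motif, the binding sequence of the factor that T-5224 inhibits, was in 1 collagen promoter (2.63%), that of Col6a1, against 4.69%. The TEAD motif was in 13.2% against 13.5%, the CCAAT box in 34.2% against 38.5% and the TATA box in 13.2% against 12.7%. These are matches of letters, not sites of binding.

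The 11 fibrillar genes had low signal, with Col1a1 as the exception. A summit was listed in or near 9 of them (81.8%, against 74.5% of all coding genes) and at an end of 3 (27.3%, against 64.3%). The median strongest fold was 4.52, and gene bodies held 2.77 summits per 100 kb. Of their 30 summits, 2 reached 10-fold, and both were in Col1a1. In the whole list 40334 of 157922 summits did.

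Col1a1 encodes the main chain of type I collagen, the most abundant fiber of connective tissue. It had 5 summits in 16819 bp, at 16.3-fold, 14.7-fold, 3.25-fold, 5.10-fold and 3.94-fold, in order from its low-coordinate end. The first of these (95% interval 13.8 to 19.3) lay 880 bp inside that end in a region at chr11:94936722-94938046, which also held the next 2. Between genes, Col1a1 was the nearest to regions of 9.51-fold, 4.75-fold and 3.01-fold at 19524, 7191 and 8123 bp. Its partner Col1a2, which supplies the other type I chain, had no summit in 35926 bp, and its nearest assigned region was of 2.55-fold, 7526 bp beyond its end.

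The chains that accompany type I in stromal fibers were near the floor of the list. Col3a1, the type III chain, had 1 summit of 3.25-fold (2.18 to 4.67), 4452 bp into the gene. Col5a1, a type V chain that nucleates fibers, had 6 summits between 2.32-fold and 3.71-fold in 153130 bp and none at its start. Col5a2 had 1 summit of 2.55-fold. Col5a3 had 2.55-fold 23 bp upstream of its start and 4.52-fold at 10697 bp.

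Cartilage fibrillar chains and types XXIV and XXVII ranged from no summit to 8.35-fold. Col2a1, the cartilage type II chain, had summits of 2.67-fold and 5.80-fold inside the gene. Col11a2 had 5.91-fold 37 bp upstream of its start, and this summit also lay within 1 kb of an end of Rxrb, a nuclear receptor gene. Its paralog Col11a1 had neither a summit nor an assigned region in or around 190278 bp. Col27a1 had 8.35-fold at 61 bp upstream of its RefSeq start, which is over 1 kb inside the outer bound of the gene, and 8.0-fold at 92125 bp. Col24a1 had 2.90-fold and 5.68-fold, at 178385 and 178709 bp from the start.

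The 9 basement membrane genes all had a summit in or near the gene, against 74.5% of all coding genes. All but Col7a1 are longer than 100 kb, and among coding genes of 100 kb or more the share was 92.4%. At an end 6 had one (66.7%, against 64.3%, and 68.2% of the long genes). The median strongest fold was 9.97, against 17.4 for all genes and 23.2 for the long ones. Basement membrane gene bodies held 5.24 summits per 100 kb, against 9.25 for all genes and 5.51 for the long ones. Of the 70 summits of this class 11 were of 10-fold or more, a lower share than the 40334 of 157922 in the whole list. None of these 11 was within 1 kb of an outer end.

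Col4a1 and Col4a2, the chains of the type IV network found in nearly all basement membranes, are transcribed in opposite directions from start sites 21 bp apart. Their shared start was open, with 4 summits of 6.38-fold (4.82 to 8.28), 4.87-fold, 2.09-fold and 2.43-fold in 1 region at chr8:11311974-11313949, which counts for both genes. The strongest signal lay far inside. Col4a2 had 23 summits, of which 29.6-fold (26.1 to 33.4) was 87640 bp from the start at chr8:11399565-11401018, 24.0-fold was at 59516 bp at chr8:11371976-11372719, 19.7-fold at 33660 bp at chr8:11346019-11346901 and 13.1-fold at 27706 bp. Col4a1 had 11 summits, led by 17.9-fold (15.2 to 20.9) at 52720 bp at chr8:11259620-11260494. The intervals of these internal summits do not overlap that of the summit at the shared start. They were named as the strongest of the pair, so this is a description and not a test.

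**Figure D2:**
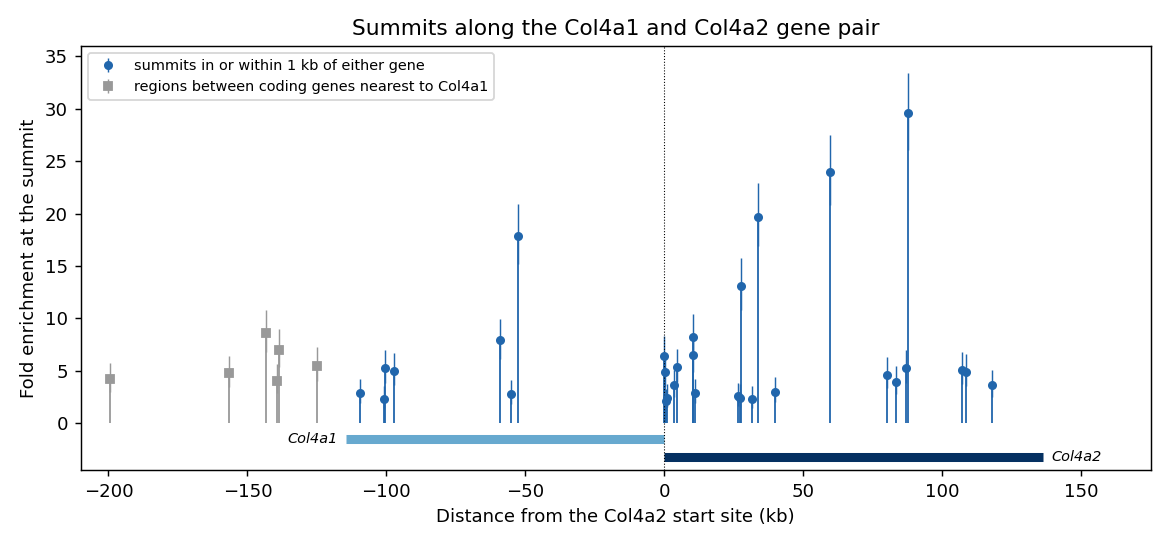
Summits along the Col4a1 and Col4a2 pair, with distance from the Col4a2 start site in kb and fold enrichment with 95% Poisson intervals. Bars below 0 show the 2 genes. Blue points are summits in or near either gene, with the strongest (29.6-fold) inside Col4a2, and gray squares are regions between coding genes nearest to Col4a1.

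The tissue-restricted type IV chains had less. Col4a5, placed head to head with Col4a6 with start sites 1343 bp apart, had 3.25-fold and 3.71-fold at 80 and 274 bp from its start and 7.88-fold at 58212 bp. Col4a6 had no summit at its start and 9.97-fold (7.99 to 12.3), 6.84-fold and 6.49-fold inside. Col4a3 had 4.17-fold and 2.67-fold inside the gene. Col4a4 had 4 summits from 3.25-fold to 4.99-fold, the highest at its 3′ end.

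Col18a1, whose product carries heparan sulfate chains and the fragment endostatin, was open at its outer start and beyond. It had 15 summits: 7.19-fold 33 bp upstream of the outer start, 6.26-fold 590 bp inside, and 14.4-fold (12.0 to 17.1), 13.0-fold, 10.2-fold and 10.2-fold deeper in the gene. No summit lay within 1 kb of its inner RefSeq start. Upstream, between genes, Col18a1 was the nearest gene to regions of 13.0-fold at 40288 bp, 12.6-fold at 44861 bp, 7.65-fold at 37117 bp and 3.13-fold at 27176 bp.

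Col15a1, the other multiplexin, had no summit at its start. It had 12 in or near the gene, of which 25.9-fold (22.6 to 29.5) was 102956 bp from the start at chr4:47310432-47311344, and 13.1-fold was at 86006 bp. The only end summit was of 2.78-fold at the 3′ end. Col7a1, the anchoring fibril collagen that links basement membrane to the matrix below, had a single summit of 5.10-fold (3.72 to 6.83) at 24627 bp, and a region of 2.43-fold lay 1857 bp upstream.

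Each of the 4 transmembrane genes had an end summit, against 64.3% of all coding genes and 68.2% of those of 100 kb or more. For 3 of the 4 there was one at the start, and the class reached a median strongest fold of 13.4. Their median at the ends was 3.94, and their bodies held 2.67 summits per 100 kb.

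Col17a1, the hemidesmosome collagen, had many summits and all were low. In order of coordinate, from its 3′ end to its start, the 9 summits in 45702 bp were of 2.09-fold, 2.67-fold, 3.25-fold, 2.78-fold, 4.29-fold, 3.25-fold, 2.78-fold, 2.67-fold and 3.01-fold. The last (1.99 to 4.39) lay 413 bp inside the start, and the interval of the highest was 3.04 to 5.89. This gave 19.7 summits per 100 kb. Upstream, regions of 5.68-fold (4.22 to 7.49) and 7.42-fold (5.73 to 9.46) lay 7819 and 13395 bp from the start.

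Col23a1 held the highest fold of the family, 72.1-fold (66.6 to 78.0) at chr11:51583900-51586007, but this summit was 728 bp beyond its 3′ end and 1 bp from an end of Phykpl, a neighboring metabolic gene, so it cannot be assigned to either. Within Col23a1 itself the start had 10.6-fold (8.51 to 12.9) and 4.64-fold, and the body had 22.5-fold (19.4 to 25.9) at 249873 bp at chr11:51539221-51540143. Col13a1 had 15.8-fold at 24981 bp, 2.78-fold at its 3′ end, none within 1 kb of its start and a region of 5.57-fold 1492 bp upstream of it. Col25a1, known from brain and muscle, had 4.87-fold 20 bp inside its start, 11.0-fold at 341452 bp and 4.17-fold at its 3′ end.

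**Figure D3:**
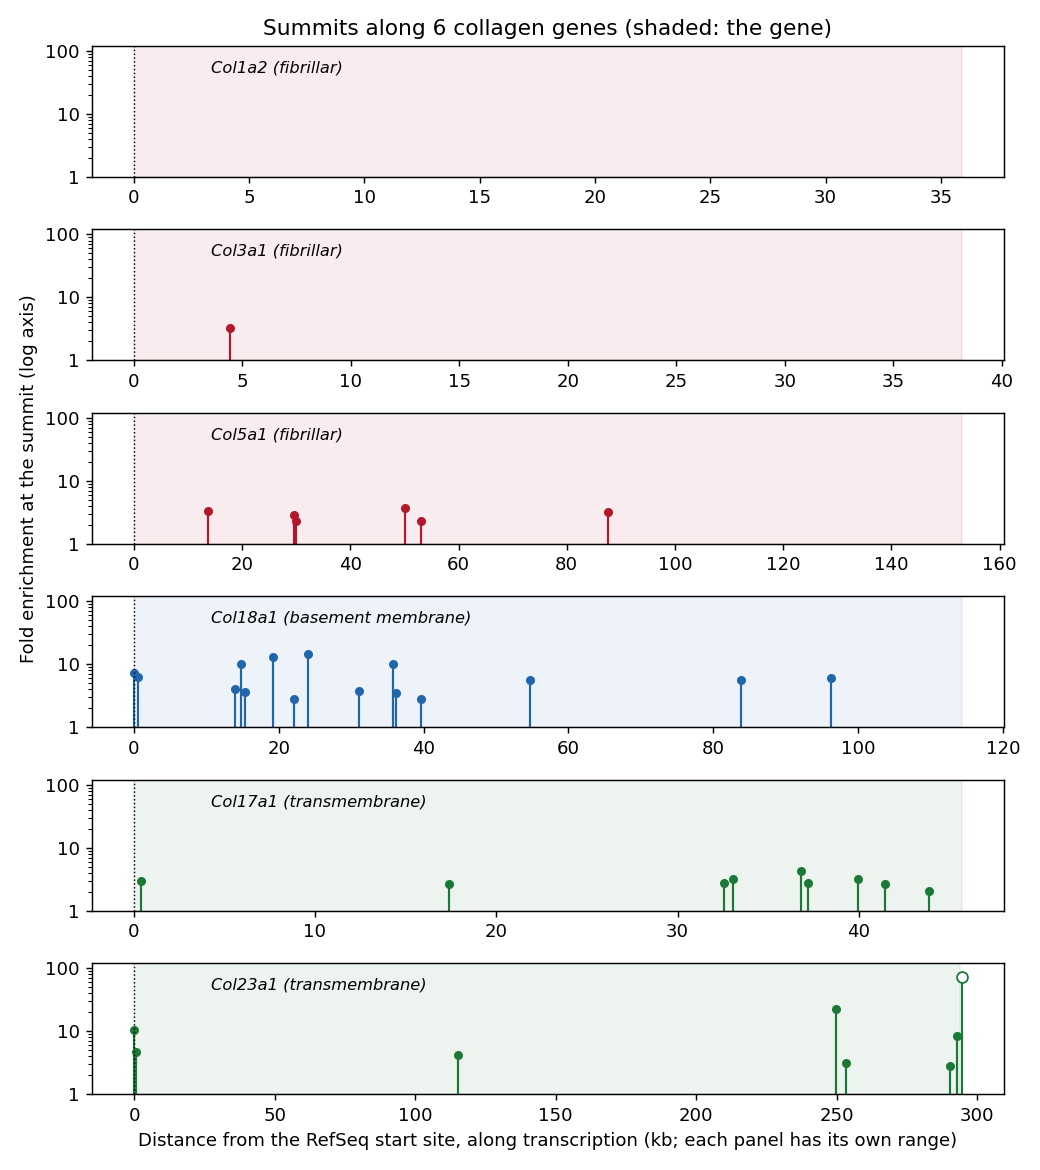
Summits along 6 collagen genes, with distance from the RefSeq start in kb, each panel on its own range, and fold enrichment on a log axis. Shading marks the gene and the open circle a summit within 1 kb of another coding gene's end. Col1a2 has none, the summits of Col3a1, Col5a1 and Col17a1 stay at or below 4.29-fold, and those of Col18a1 and Col23a1 pass 10-fold.

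Across the 3 classes, the median strongest fold was 4.52 for fibrillar, 9.97 for basement membrane and 13.4 for transmembrane genes, all below the 17.4 of all coding genes. The share with an end summit ran in the same order, 3 of 11 (27.3%), 6 of 9 (66.7%) and 4 of 4. Over all coding genes it was 64.3%, close to that of the basement membrane genes. Some of these end summits were near the floor of the list. With −log10 q of at least 10 the counts were 2 of 11, 4 of 9 and 2 of 4, against 58.7% of all coding genes. The ranges of the strongest fold overlapped: from 0 to 16.3 in fibrillar genes, 4.17 to 29.6 in basement membrane genes and 4.29 to 72.1 in transmembrane genes. Without the summit beside Phykpl, the highest transmembrane value was 22.5, below the highest of the basement membrane genes, and the class median stayed at 13.4. The classes also differ in length, with medians of 45.1, 135.1 and 217.6 kb, and its part in these counts was not tested. Pooled density per 100 kb did not follow that order, at 2.77, 5.24 and 2.67, and the medians of the single genes' densities were 3.92, 3.20 and 2.61.

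Sorting the genes by the cells known to make them gave a less even picture. Of all coding genes 74.5% had a summit and 64.3% one at an end. The 5 genes listed as made by epithelium all had a summit, 3 of them (60.0%) at an end, with a median strongest fold of 7.88. They were Col18a1 at 14.4, Col4a6 at 9.97, Col4a5 at 7.88, Col7a1 at 5.10 and Col17a1 at 4.29. Of 11 genes listed as stromal, 8 (72.7%) had a summit, for 4 of them (36.4%) at an end, and the median was 3.25. Among these, Col15a1 at 25.9 and Col1a1 at 16.3 were above every epithelial gene, Col14a1 at 6.96 was between Col7a1 and Col4a5, and Col1a2, Col12a1 and Col6a1 had none. Of 7 cartilage genes 4 (57.1%) had a summit, for 2 of them (28.6%) at an end, and the median was 3.48. Col4a1 and Col4a2, at 17.9 and 29.6, were left out of the epithelial and stromal lists as made by both. Members in none of these lists were not sorted. A single peak list does not tell which cells carried a summit.

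The cell type markers set the scale. Each of the 12 colonic epithelium markers had an end summit, against 64.3% of all coding genes. The median strongest fold of these 12 was 39.4, led by Krt8, a keratin, at 59.1 and Hnf4a, a factor of intestinal epithelium, at 57.3. None of the 21 markers of fibroblasts, smooth muscle, endothelium and leukocytes reached 10-fold in or near the gene, against 58.7% of all coding genes. Regions away from gene ends assigned to these markers did reach 20.4-fold, 17.0-fold, 51.5-fold and 11.1-fold in the 4 lists. Of 8 fibroblast markers 6 (75.0%, against 74.5% of all genes) had a summit, led by Pdgfra at 8.81 and Vim at 7.30, and Thy1 and Lum had none. Smooth muscle had 3 of 4, Acta2 and Myh11 highest at 6.96 and 6.84 and Tagln without one, endothelium 4 of 4 with Cdh5 at 8.35 and Tek at 4.87, and leukocytes 2 of 5, Itgam at 6.96 and Csf1r at 3.71, with Ptprc, Cd79a and Cd3e without one. Their part in the collagen summits was not tested.

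The genes that act on collagen were set beside all coding genes, of which 64.3% had an end summit and whose median strongest fold was 17.4. Of 32 genes of collagen synthesis and processing, 30 had a summit and 25 (78.1%) had one at an end, with a median strongest fold of 13.6, below that of all genes. P4hb, the subunit of prolyl hydroxylase that is also a general protein-folding enzyme, reached 73.6, and P3h1, a prolyl 3-hydroxylase, 57.5 at an end it shares with AU022252. The extracellular cross-linking oxidases Lox and Loxl2 had none. All 10 collagen receptors had a summit, but the 6 with one at an end (60.0%) and the median of 11.2 were both under the values of all genes. They were led by the integrin chains Itgb1 at 46.3 and Itga2 at 42.5. The 8 hemidesmosome partners of type XVII all had a summit, for 7 of them at an end, with a median of 45.9 and 26.5 summits per 100 kb. Plec at 71.5 and Lama3 at 56.3 were highest, and the lowest, 29.0, was above each summit of Col17a1.

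**Figure D4:**
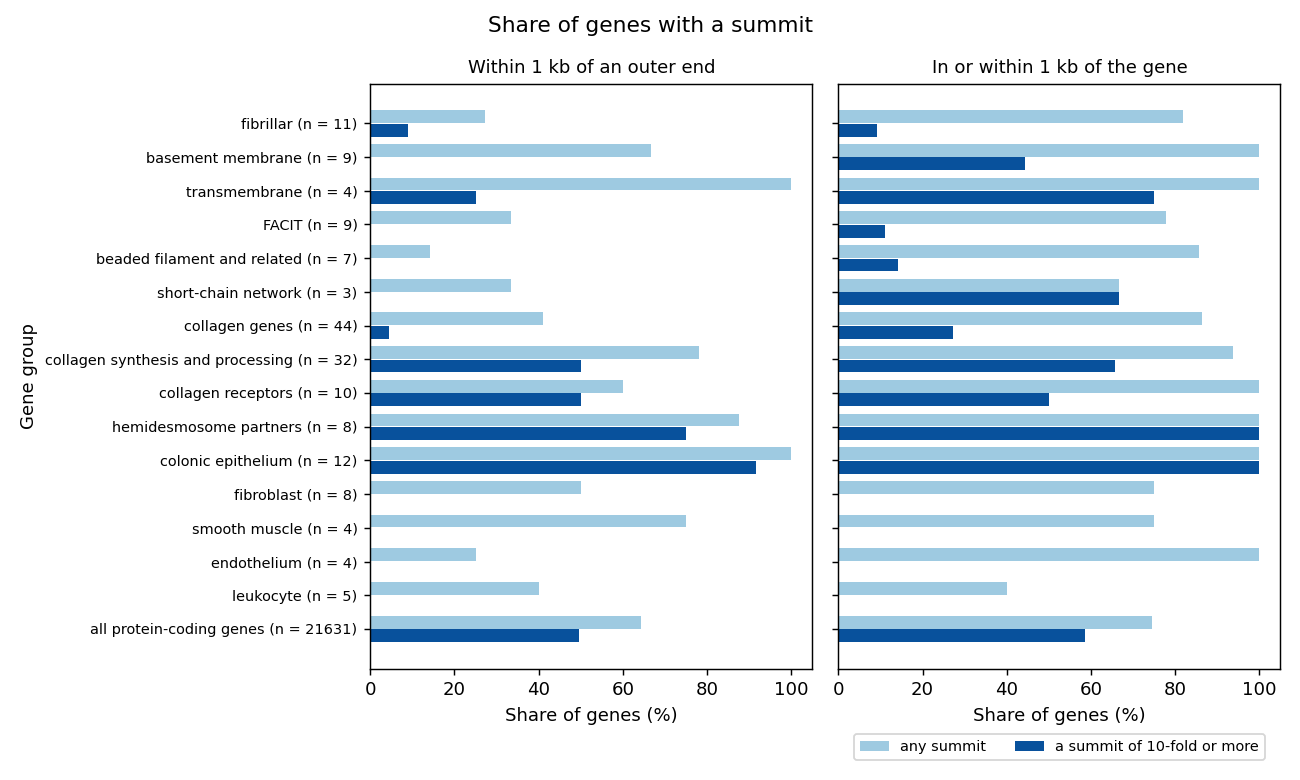
Share of genes with a summit within 1 kb of an outer end (left) and in or within 1 kb of the gene (right), in percent, by class and list with the number of genes in each. Light bars are any summit and dark bars a summit of 10-fold or more. For collagen genes at an end they reach 40.9% and 4.55%, for all protein-coding genes 64.3% and 49.5%.

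The strongest summit of each smaller class was again inside a gene and away from its ends. Col6a2, of the beaded filament group, was unlike these, with its only summit, of 2.43-fold, 31 bp from a start site. Of 9 FACIT genes, whose products decorate fibers, 7 had a summit (77.8%, close to the 74.5% of all coding genes). They were led by Col9a1 at 16.0 and Col16a1 at 7.77. Of these, Col16a1 also had 6.26-fold 29 bp upstream of its start. Of 7 genes of the beaded filament group 6 had a summit (85.7%, against the same 74.5%). Col28a1 had 24.1-fold (21.0 to 27.6; chr6:8023389-8024287) and 19.0-fold (chr6:8025196-8026108), at 168850 and 167114 bp from the start, and Col6a3 had 4.75. Col8a2 at 13.9 and Col8a1 at 13.1 led the short-chain class, and Col26a1 had 6.38.

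Regions away from all coding gene ends whose nearest such end, within 100 kb, belonged to a member numbered 203. At least 1 such region was assigned to 42 members (95.5%), against 69.6% of all genes, and Col11a1 and Col9a3 had none. Among genes of 100 kb or more the shares were closer, 96.2% of members and 89.4% of all genes. Of the 203, 132 (65.0%) lay inside the member, 54 (26.6%) between coding genes and 17 (8.37%) inside another coding gene. The last group included 10 of the 21 regions of Col4a1 and 2 of the 8 of Col4a2, since each lies inside the other gene of the pair. Collagen regions were of 10-fold or more in 25 cases (12.3%), against 21.6% of all 86425 such regions, and their median fold was 4.17 against 4.64. The median was 3.83 over 32 fibrillar, 4.93 over 68 basement membrane and 3.25 over 23 transmembrane regions.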

How the data were processed

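Bulk ATAC-seq of 4 libraries, 1 in each group, was available as 1 peak list with no value per library. Per the submitters' processing notes, the authors used Bowtie2, MACS2 and mm10; no versions, thresholds or duplicate handling are stated there or in the labels. In every record the deposited score equals the whole part of 10 times −log10 q. The authors' −log10 q was at least 1.51. The authors' fold at the summit is a linear ratio. It is the pileup plus 1 over a background of 7.63 plus 1 in every record (tolerance 0.01). A Poisson tail with that background gave the deposited −log10 p within 7.9e-06 for the 106 distinct folds compared. The sequencing depth of each library is unknown, and repeated copies of a molecule would make the intervals too narrow.

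Genes, outer bounds, start sites and promoter sequences came from RefSeq tables on GRCm38.p6. Promoter entries matched 35 of 44 members; Col1a1, Col2a1, Col4a3, Col5a2, Col9a3, Col12a1, Col14a1, Col22a1 and Col26a1 had none. Members, classes and lists were chosen with earlier results of these data known. The classes follow the type number. The genes named were all fibrillar, basement membrane and transmembrane members, the 2 strongest and those without a summit of each other class and list, and the 10 strongest summits. The 10-fold level, the 10 kb distance, the figures' genes and the printed promoters were chosen after values were seen, as were other genes placed beside them. The planned end window has no strand, so start sites were also used. Assignment of summits was tested on simulated data. Python 3.11.15, pandas 2.3.3, numpy 2.4.6, scipy 1.17.1 and matplotlib 3.10.9 were used.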

Additional observations from a re-analysis of the deposited data

How the results depend on the processing

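No value has a replicate error, since each group held 1 library, and no library could be left out. No paired analysis was possible because the result comes from no test. Of 44 alternative values, 36 stayed within 1.5 times the count, or within the counting interval of the median, and 8 moved. Some of the 36 could hardly have moved and are no support. The 3 class medians lie above the folds that a −log10 q limit of 10 removes. Keeping only the strongest summit of each region keeps the summits on which they rest. With −log10 q of at least 10, members with an end summit fell to 10 (all genes 58.7%), transmembrane members to 2 and assigned regions to 108. Assigned regions were 109 within 25 kb and 103 with the ends of all annotated genes. Medians taken at gene ends were 0 for fibrillar, 3.71 for basement membrane and 3.94 for transmembrane genes. The last 2 cannot be ordered, since the counting interval of 3.71 (2.56 to 5.22) holds 3.94. Such an interval covers counting error at the level of the median and leaves out the spread between genes. It is therefore not the error of a class median and cannot serve to order the classes. Members with an end summit were 15 with a window of 500 bp and 23 with 2 kb. Leaving out summits within 1 kb of another coding gene's end, an alternative added after seeing the data, gave medians of 3.94, 9.97 and 13.4 for the 3 classes. The pileup limits what low folds show: at the lowest, 17, counting error alone spans 1.26 to 3.27-fold.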

Other observations

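Several regions outside the members had a member's end as their nearest coding gene end. Col12a1, a FACIT gene of dense connective tissue with no summit in the gene, was nearest to a region of 11.7-fold (9.55 to 14.2) at 15689 bp. Col10a1, the collagen of hypertrophic cartilage, also had none, and a region of 9.85-fold inside another coding gene lay 4185 bp upstream of its start. Col6a1 had none, and a region of 7.30-fold lay 9195 bp upstream. Col19a1, at most 4.17-fold in the gene, had a region of 14.0-fold 25301 bp upstream of its start. Col28a1, with summits of up to 24.1-fold deep inside the gene, also had regions of 21.1-fold and 15.9-fold between genes, 5553 and 7354 bp upstream of its start, where no summit lay within 1 kb. Distance alone assigned these regions, and no link to the gene was measured.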
